A study of Mus musculus with 9 samples.

Results

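The genes described here are 10 core members of the Bcl2 family of apoptosis regulators, taken by gene name from a table of 54532 genes; the cells are RENCA, a renal carcinoma line of the mouse. They comprise the pro-survival genes Bcl2, Bcl2l1 and Mcl1, the effectors Bax and Bak1, and the BH3-only genes Bcl2l11, Bbc3, Pmaip1, Bid and Bad. Poly(A) RNA of cells grown in the same supplemented RPMI medium gave 9 libraries, 3 per group. Rescue cells carried the genotype label NDUFA4L2 +/+ and re-expressed NDUFA4L2 from a lentiviral vector with a puromycin resistance cassette, under puromycin selection. Knockout cells carried the label NDUFA4L2 -/- and were edited with Cas9 and a single guide on the PX458 plasmid, then grown out from single-cell colonies. Empty-vector cells were labelled WT. The sources used here do not say how many knockout colonies were sequenced, whether the empty-vector cells were cloned or whether replicates were separate cultures. The p-values therefore cover only library-to-library spread, which may be technical. Editing, clone choice, transduction and drug selection differed along with NDUFA4L2 and cannot be told apart from it.

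Mitochondrial apoptosis is set by binding between members of this family. Bax and Bak1, once activated, form pores in the outer mitochondrial membrane through which cytochrome c escapes and starts the caspase cascade. Bcl2, Bcl2l1 (Bcl-xL) and Mcl1 hold the effectors in check, and the BH3-only proteins, which share with the rest of the family only a short helix, bind the pro-survival members or activate the effectors directly. Several members are controlled at the protein level, by phosphorylation, cleavage or rapid turnover, none of which a transcript count measures. NDUFA4L2 is a mitochondrial protein related to a subunit of the respiratory chain.

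Total counts ran from 15164167 to 26643877 per library in rescue, from 13106531 to 25305299 in knockout and from 14685134 to 24172162 in empty vector. The targeted gene, Ndufa4l2, had 35 to 73 counts in the rescue libraries, 6 to 8 in knockout and 6 to 16 in empty vector, so it was highest in every rescue library, and its mRNA did not separate knockout from empty vector. Of 8 epithelial and renal markers, Krt8, Krt18, Pax8, Pax2 and Cdh16 were well expressed in every group, while Epcam had 1 count in 1 rescue library and 0 in the other 8. Cdh1, which encodes E-cadherin, averaged 2.46 CPM in rescue, 99.6 in knockout and 11.9 in empty vector, and Lhx1 averaged 0.762, 0.113 and 0.71, so the epithelial markers also differed between groups. Genes of the mitochondrial genome took 2.23% to 2.65% of the counts in rescue, 5.79% to 7.93% in knockout and 2.16% to 3.17% in empty vector, a share that also reads RNA quality. With these genes removed before scaling, all 30 member results kept their direction and their call. The summed level of 7 leukocyte markers was 36.4 to 41.9 CPM (counts scaled to library size) in rescue, 207 to 224 in knockout and 74.8 to 80.8 in empty vector, most of it Cd68. Lyz2 averaged 1.15 CPM in rescue, 7.49 in knockout and 0.949 in empty vector, and Csf1r averaged 1.39, 3.87 and 1.08, so that the 3 leukocyte markers tested all rose in knockout and fell in rescue against it. Ptprc had at most 2 counts and Tyrobp at most 1 in any library and Cd3e had 0 in all 9. The 5 fibroblast markers summed to 28.9 to 30.7 CPM in rescue, 60.4 to 71.4 in knockout and 26.5 to 33.4 in empty vector, mostly Pdgfrb, with Pdgfra at no more than 3 counts and Dcn at no more than 1. Col1a1 averaged 4.22 CPM in rescue, 5.56 in knockout and 1.81 in empty vector, and Acta2 averaged 0.55, 0.534 and 0.103. Both were called higher in rescue and in knockout than in empty vector. The Acta2 calls rest on very low levels, and its knockout and empty-vector libraries overlapped. The part of these markers in the member results was not tested. The 4 endothelial markers never summed above 1.08 CPM. In bulk RNA, fewer cells expressing a gene and less RNA per cell cannot be told apart.

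The family did not move as a block. In knockout against empty vector the BH3-only gene Bcl2l11 rose 23.2-fold, while the BH3-only genes Pmaip1 and Bid fell to 0.332 and 0.569 of their empty-vector levels and pro-survival Bcl2 fell to 0.564 of its level. Counts were tested with edgeR's quasi-likelihood test, adjusted over all 13326 genes with enough counts, and an adjusted p under 0.05 was called. By that measure 8 of the 10 members were called in knockout against empty vector, where 60.6% of all genes tested were called, 5 of them higher (29.5% of all genes) and 3 lower (31.1%). In rescue against knockout 7 members were called, against 56.8% of all genes, 3 of them higher (29.5% of all genes) and 4 lower (27.3%). In rescue against empty vector 6 members were called, against 47.5% of all genes, 3 higher (22.4%) and 3 lower (25.1%). With 10 genes, these counts are not far from the background, and nothing more is read from them. The libraries of the groups compared did not overlap for 8 members in knockout against empty vector (63.7% of all genes tested), 8 in rescue against knockout (65.3%) and 7 in rescue against empty vector (55.1%). All 10 members passed the filter on low counts, but Bcl2l11 did so only through its knockout libraries, and without it 7, 6 and 6 of the other 9 were called in the 3 comparisons in the order given. The median log2 change of the 10 was 0.17 in knockout against empty vector, -0.15 in rescue against knockout and 0.07 in rescue against empty vector, beside -0.02, 0.03 and -0.02 for all genes tested. Scaling by library totals alone shifted the all-gene median to -0.175 in knockout against empty vector and 0.217 in rescue against knockout. Higher calls then made up 34.4% in place of 48.7%, and 69.6% in place of 51.9%. The comparisons share libraries, so their values are set side by side and not as independent evidence.

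**Figure D1:**
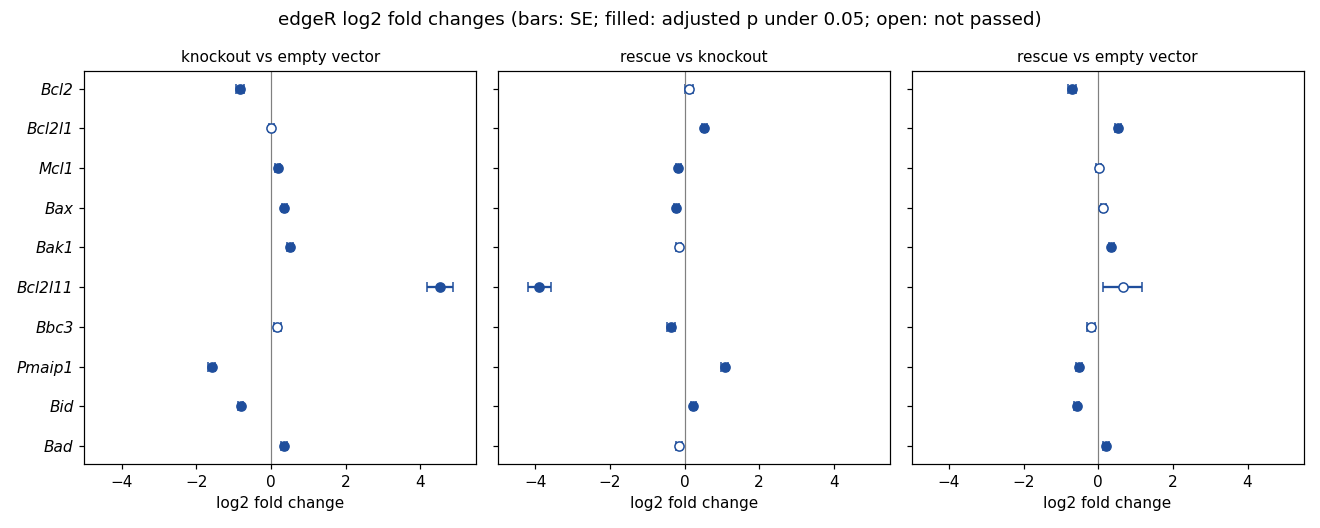
Log2 fold change (x axis) of each member (y axis) in the 3 comparisons, with bars of 1 SE, filled points for adjusted p under 0.05 and open points for genes that did not pass. Bcl2l11 stood at 4.54 in knockout against empty vector and -3.89 in rescue against knockout, far outside the other members, which lay between -1.59 and 1.07 in these comparisons.

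Among the pro-survival genes, Bcl2 was lower in both rescue and knockout than in empty vector. Bcl2 (chromosome 1, 106538178 to 106714274, minus strand, mm10, the build named in the submitters' processing notes) encodes the founding member, which protects the mitochondrial outer membrane. It had 72.6, 71.9 and 77.1 CPM in the rescue libraries, 67.8, 67.2 and 68.1 in knockout, and 95.3, 139 and 127 in empty vector. The empty-vector libraries lay above all 6 others, with replicate 1 nearest to them and the widest spread of any group. Bcl2 fell in knockout against empty vector by 0.83 ± 0.11 on the log2 scale (SE; edgeR adjusted p = 1.8e-05). Against empty vector, rescue cells had less Bcl2 by a log2 change of -0.70 ± 0.11 (edgeR adjusted p = 0.00013). Between rescue and knockout the log2 change was 0.12 ± 0.11 (edgeR adjusted p = 0.35), which did not pass, although the 3 rescue libraries lay above the 3 knockout ones.

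Bcl2l1 encodes Bcl-xL, which sequesters Bax, Bak1 and BH3-only proteins. Its levels were 147, 150 and 150 CPM in the rescue libraries, 97.7, 107 and 106 in knockout and 116, 90.1 and 102 in empty vector. Rescue stood apart from both other groups, whose libraries overlapped. Bcl2l1 rose in rescue by 0.53 ± 0.07 log2 units against knockout (edgeR adjusted p = 5.7e-06) and by 0.53 ± 0.07 against empty vector (edgeR adjusted p = 8.2e-06). Knockout and empty vector differed by a log2 change of 0.01 ± 0.07 (edgeR adjusted p = 0.93), with a sign that turned under several alternatives.

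Mcl1 encodes a short-lived pro-survival protein and had the highest FPKM of the members in each group. It had 213, 222 and 202 CPM in the rescue libraries, 230, 241 and 244 in knockout and 203, 215 and 215 in empty vector, so that knockout lay slightly above both others. Mcl1 rose by 0.18 ± 0.06 log2 units in knockout against empty vector (edgeR adjusted p = 0.015) and fell by 0.17 ± 0.06 in rescue against knockout (edgeR adjusted p = 0.024). Both calls depended on the settings: scaled by library totals alone the values were 0.02 and 0.02, which turns the sign of the rescue-against-knockout value, and without knockout replicate 2 or 3 neither passed, with adjusted p-values of 0.055 and 0.056 against empty vector and 0.078 and 0.08 for rescue against knockout. Without a filter on low counts neither passed (adjusted p = 0.16 and 0.19). The rescue-against-knockout call was also lost without rescue replicate 1 (adjusted p = 0.057) or 3 (adjusted p = 0.15). Rescue and empty vector differed by 0.01 ± 0.06 (edgeR adjusted p = 0.89).

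Both effectors were higher in knockout than in empty vector. Bak1 encodes the effector that sits in the outer mitochondrial membrane also in healthy cells. It had 88.1, 93.8 and 81.9 CPM in the rescue libraries, 92.4, 94.7 and 107 in knockout and 71.6, 66.7 and 68.4 in empty vector. The empty-vector libraries lay below all others, and rescue and knockout overlapped. Bak1 rose by 0.51 ± 0.07 log2 units in knockout (edgeR adjusted p = 3e-06) and by 0.35 ± 0.07 in rescue (edgeR adjusted p = 0.00035), both against empty vector. For rescue against knockout the log2 change was -0.16 ± 0.07 (edgeR adjusted p = 0.054); it was called with RLE size factors (adjusted p = 0.031), DESeq2 (adjusted p = 0.042), only the 2 groups in the fit (adjusted p = 0.011), without knockout replicate 1 (adjusted p = 0.037) or without rescue replicate 2 (adjusted p = 0.039), and was 0.02 with library totals alone.

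Bax encodes the effector that moves from the cytosol to mitochondria on activation. It had 46.3, 42.4 and 44.5 CPM in the rescue libraries, 49.6, 52.0 and 54.1 in knockout and 40.5, 42.3 and 38.7 in empty vector. Each knockout library exceeded every library of the other groups. Bax rose by 0.36 ± 0.07 log2 units in knockout against empty vector (edgeR adjusted p = 0.00011). It fell by 0.22 ± 0.07 in rescue against knockout (edgeR adjusted p = 0.007), a call lost without rescue replicate 2 (adjusted p = 0.052), without a filter on low counts (adjusted p = 0.063) and with library totals alone (log2 change -0.04). Rescue and empty vector differed in Bax by a log2 change of 0.14 ± 0.07 (edgeR adjusted p = 0.098).

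Of the 5 BH3-only genes, Bcl2l11 rose most in knockout and Pmaip1 fell most. Bcl2l11 encodes Bim, which binds every pro-survival member and can activate Bax and Bak1, and lies on chromosome 2, 128126038 to 128162547, plus strand. It had 9, 7 and 3 counts in the rescue libraries, 66, 48 and 129 in knockout and 2, 5 and 5 in empty vector. That is 0.321, 0.383 and 0.189 CPM in rescue, 4.20, 3.97 and 5.44 in knockout and 0.0888, 0.321 and 0.201 in empty vector. The transcript was thus near the limit of detection in rescue and empty vector and clearly present in each knockout library. The log2 change was 4.54 ± 0.35 in knockout against empty vector (SE, edgeR adjusted p = 1.4e-09). With so few empty-vector counts this size is loose, and on log2 FPKM with a pseudocount of 0.1 it was 2.41. Bcl2l11 fell by 3.89 ± 0.32 on the log2 scale in rescue against knockout (edgeR adjusted p = 4.2e-09). Rescue and empty vector differed by a log2 change of 0.65 ± 0.53 (edgeR adjusted p = 0.33), and with so few counts no difference was detectable. Since the gene entered the test only through its knockout libraries, the 2 calls that involve knockout are given for their size and per-library values.

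**Figure D2:**
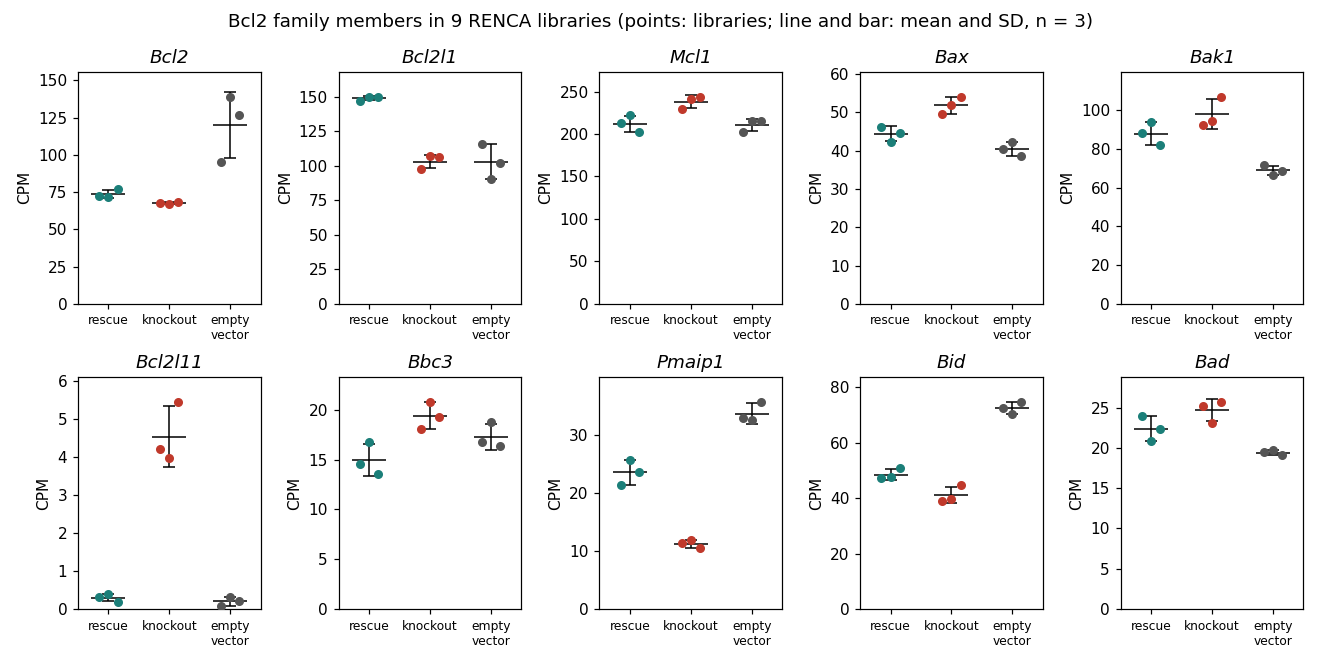
CPM (y axis, from 0) of each member in the rescue, knockout and empty-vector libraries (x axis); points are libraries, lines and bars the mean and SD of 3. Bcl2l11 stood at 3.97 to 5.44 CPM in knockout and at most 0.383 elsewhere, whereas Pmaip1 was lowest in knockout, at 10.5 to 11.8 CPM.

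The genes on either side of Bcl2l11 overlapped between all groups. Acoxl, an acyl-CoA oxidase-like gene that ends 2165 bases before Bcl2l11 starts, had 2, 3 and 5 counts in the rescue libraries, 2, 1 and 4 in knockout and 2, 4 and 2 in empty vector, too few to test. Gm14005, a long noncoding RNA gene of the opposite strand 15772 bases past the end of Bcl2l11, had 71, 43 and 35 counts in rescue, 28, 34 and 77 in knockout and 45, 47 and 54 in empty vector. Its log2 change was 0.17 ± 0.24 in knockout against empty vector (edgeR adjusted p = 0.57) and -0.15 ± 0.24 in rescue against knockout (edgeR adjusted p = 0.61). Bub1, a mitotic checkpoint kinase gene 294173 bases before Bcl2l11, was the only other gene tested within 300 kb, with a log2 change of -0.14 ± 0.06 in knockout against empty vector (edgeR adjusted p = 0.044) and 0.68 ± 0.06 in rescue against knockout (edgeR adjusted p = 9e-09). Both values had the sign opposite to that of Bcl2l11.

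**Figure D3:**
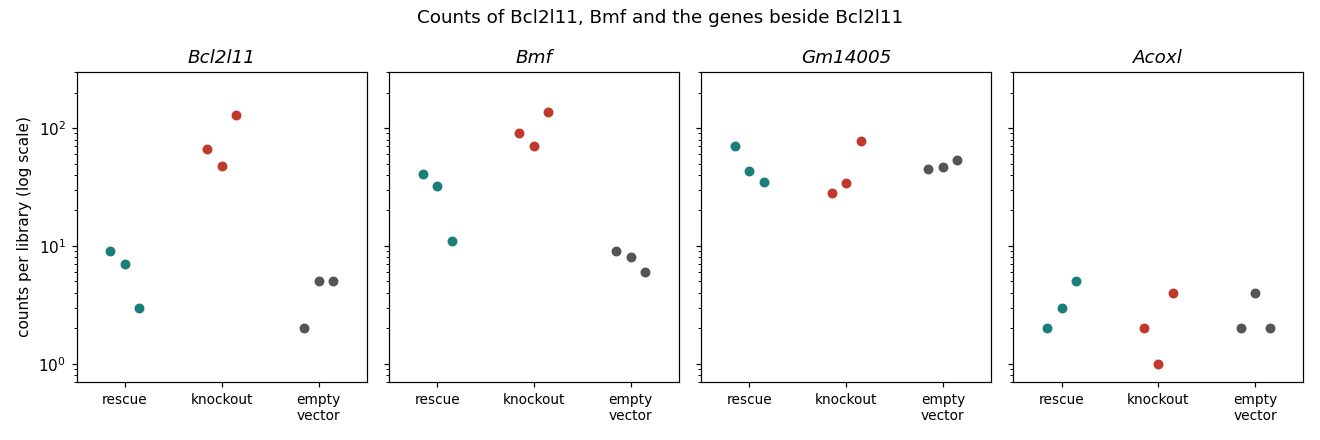
Counts per library (y axis, log scale) of Bcl2l11, of Bmf, another BH3-only gene, and of Gm14005 and Acoxl, which flank Bcl2l11, in rescue, knockout and empty-vector libraries (x axis). Bcl2l11 and Bmf reached 48 to 137 counts in knockout, with at most 41 in rescue and 9 in empty vector, while Gm14005 and Acoxl overlapped between all groups.

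Because Bcl2l11 was the member that moved most, the sequence before its annotated starts is shown. Of Bbc3, only the window with a match to the FOXO motif named below is shown. The RefSeq (GRCm38.p6) start sites used here covered 9 of the 10 members, 15 windows of 250 bases before a start in all. Pmaip1 was the member without one, so its promoter was not searched. The windows were searched on both strands for 4 motifs: GTAAACA, the core bound by FOXO factors, TGANTCA (AP-1), ACGTG (the hypoxia response core) and TGACNNNGC (antioxidant response). TGANTCA and TGACNNNGC can overlap, and ACGTG matches CACGTG on both strands. The Bbc3 windows at chr7:16310011-16310260 and chr7:16310181-16310430 overlap, so the 15 windows are not all separate sequence. At least 1 window each of Bcl2l1, Bid, Bak1 and Bad overlaps annotated exons of the members, and so is in part transcribed sequence. The only member window with TGACNNNGC, of Bcl2l1, is among them. The windows printed below overlap no such exon. The FOXO core was found in 2 of the 15 windows, 1 of Bcl2l11 and 1 of Bbc3, and in 3.17% of all 32851 promoter windows of that length. Capitals mark that match, which is on the plus strand of the gene in Bcl2l11, 227 to 221 bases before the start, and on the other strand in Bbc3, 167 to 161 bases before it.
Bcl2l11 first start, chr2:128125788-128126037, plus strand: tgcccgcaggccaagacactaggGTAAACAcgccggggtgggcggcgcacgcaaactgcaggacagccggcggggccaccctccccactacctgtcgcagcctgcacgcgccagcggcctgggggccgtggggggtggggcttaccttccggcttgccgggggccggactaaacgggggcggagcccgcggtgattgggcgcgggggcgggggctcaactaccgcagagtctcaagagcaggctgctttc
Bcl2l11 second start, chr2:128127325-128127574, plus strand: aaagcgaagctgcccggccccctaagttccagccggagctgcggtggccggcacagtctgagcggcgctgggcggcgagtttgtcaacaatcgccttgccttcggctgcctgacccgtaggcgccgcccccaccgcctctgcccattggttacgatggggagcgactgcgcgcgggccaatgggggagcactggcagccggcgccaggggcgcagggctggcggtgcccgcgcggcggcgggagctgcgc
Bbc3, a start on chr7:16310011-16310260, plus strand: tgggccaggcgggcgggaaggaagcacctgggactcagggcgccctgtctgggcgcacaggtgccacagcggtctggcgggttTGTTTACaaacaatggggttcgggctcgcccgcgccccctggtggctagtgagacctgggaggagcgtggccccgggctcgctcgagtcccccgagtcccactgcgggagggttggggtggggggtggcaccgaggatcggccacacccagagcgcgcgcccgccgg
The window before the second Bcl2l11 start held none of the 4 motifs. ACGTG was found in 2 member windows, 1 of Bax and 1 of Bbc3, and in 16.6% of all windows; TGACNNNGC in 1, of Bcl2l1, and in 10.2% of all; and TGANTCA in 0 of 15, and in 6.75% of all. A match of letters describes the sequence and is not evidence of binding, and the counts, which are per gene, do not say from which start Bcl2l11 was transcribed.

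Pmaip1, on chromosome 18 (66458604 to 66465550, plus strand), encodes Noxa, which neutralises Mcl1. It was the member with the next largest change. Its levels were 21.4, 25.6 and 23.5 CPM in the rescue libraries, 11.4, 11.8 and 10.5 in knockout and 32.8, 32.5 and 35.6 in empty vector, with no overlap between any of the groups. Pmaip1 fell by 1.59 ± 0.09 on the log2 scale in knockout against empty vector (edgeR adjusted p = 3.4e-11). It rose by 1.07 ± 0.09 log2 units in rescue against knockout (edgeR adjusted p = 1.1e-08) and remained lower in rescue than in empty vector, by a log2 change of -0.52 ± 0.08 (edgeR adjusted p = 4.9e-05).

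Bid, on chromosome 6, encodes the protein that Casp8 cleaves to link death receptors to mitochondria. It had 47.3, 47.6 and 50.8 CPM in the rescue libraries, 39.1, 39.7 and 44.6 in knockout and 72.4, 70.4 and 74.7 in empty vector. The groups did not overlap, and rescue lay close to knockout. Bid fell by 0.81 ± 0.07 on the log2 scale in knockout against empty vector (edgeR adjusted p = 4.4e-09) and by 0.58 ± 0.07 in rescue against empty vector (edgeR adjusted p = 8.4e-07), and rose by 0.23 ± 0.07 in rescue against knockout (edgeR adjusted p = 0.0069).

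Bad and Bbc3 had the smallest log2 changes of the BH3-only genes in both comparisons with empty vector. Bad, which survival kinases inactivate by phosphorylation, had 23.9, 20.9 and 22.4 CPM in the rescue libraries, 25.2, 23.1 and 25.7 in knockout and 19.5, 19.7 and 19.1 in empty vector. It rose by 0.35 ± 0.08 log2 units in knockout against empty vector (edgeR adjusted p = 0.0012). With library totals alone that change was 0.19 and did not pass (adjusted p = 0.065). In rescue against empty vector Bad rose by 0.21 ± 0.08 (edgeR adjusted p = 0.044), a call near the threshold that was lost in 7 alternatives, among them DESeq2 (adjusted p = 0.073) and leaving out empty-vector replicate 2 (adjusted p = 0.073) or 3 (adjusted p = 0.12) or rescue replicate 1 (adjusted p = 0.19) or 3 (adjusted p = 0.086). Rescue and knockout did not pass for Bad (-0.14 ± 0.08; edgeR adjusted p = 0.16). Bbc3, which encodes Puma, a p53-induced activator of apoptosis, had 14.6, 16.8 and 13.6 CPM in the rescue libraries, 18.1, 20.8 and 19.3 in knockout and 16.8, 18.8 and 16.4 in empty vector. Only its change in rescue against knockout was called, a fall by 0.37 ± 0.10 on the log2 scale (edgeR adjusted p = 0.0037) that did not pass with library totals alone (-0.19, adjusted p = 0.14). Its other log2 changes were 0.17 ± 0.10 in knockout (edgeR adjusted p = 0.15) and -0.20 ± 0.10 in rescue (edgeR adjusted p = 0.1), both against empty vector. The second of these passed without rescue replicate 2 (adjusted p = 0.044).

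Levels of different genes were compared only on the deposited FPKM, which divides by gene length. Of the members, Mcl1 stood highest in every group, at 61.7 ± 2.92 FPKM in rescue, 69.8 ± 2.07 in knockout and 60.9 ± 1.44 in empty vector (SD, n = 3). Bak1 followed at 36.3 ± 2.49, 40.7 ± 3.18 and 28.3 ± 1.33 in the same order. Bcl2 was the least abundant of the 3 pro-survival members, at 8.01 ± 0.302 FPKM in rescue, 7.39 ± 0.0477 in knockout and 13 ± 2.3 in empty vector. Bcl2l11 was the lowest member throughout, at 0.0368 ± 0.0123, 0.564 ± 0.097 and 0.025 ± 0.0141 FPKM, so that even in knockout it stayed below every other member. Neighbours in this order whose libraries overlapped were Pmaip1 with Bcl2 and Bcl2 with Bbc3 in rescue, Bad with Bid in knockout, and Bax with Bcl2l1, Bcl2l1 with Bid and Bcl2 with Pmaip1 in empty vector. The order itself shifted between groups: Bcl2l1 stood above Bax in each rescue library and below it in each knockout library.

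**Figure D4:**
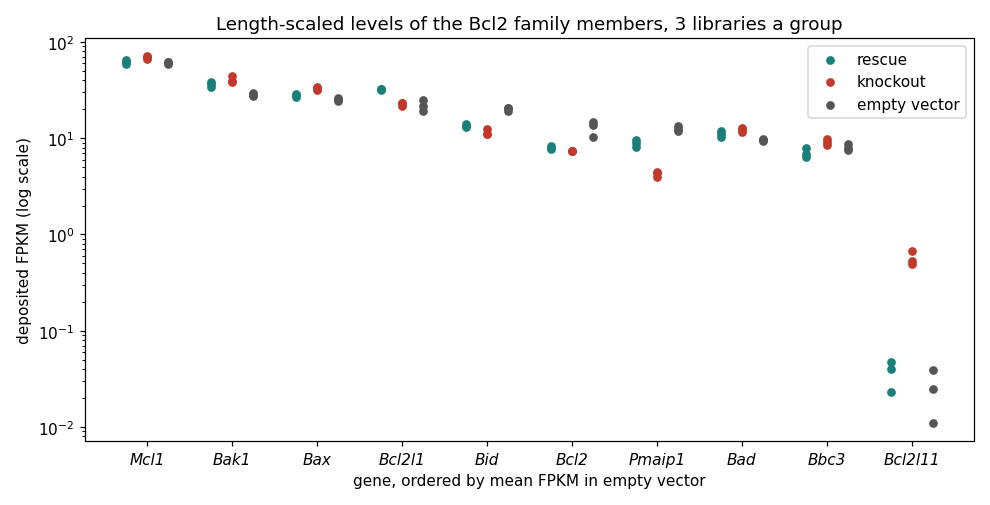
Deposited FPKM (y axis, log scale) of the 10 members (x axis, ordered by their mean in empty vector), with 1 point per library of rescue, knockout and empty vector. Mcl1 lies near 60 to 70 FPKM in every group, and Bcl2l11 lies lowest, at 0.494 to 0.675 FPKM in knockout and 0.0475 or less elsewhere.

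The balance of the classes was described from the same FPKM values. The 3 pro-survival genes held 49.1% to 49.5% of the FPKM summed over the members in rescue, 46.4% to 47.9% in knockout and 47.3% to 48.6% in empty vector, a nearly constant share. The 5 BH3-only genes held 19.3% to 20.1% in rescue, 17.8% to 18.2% in knockout and 25% to 25.4% in empty vector. The effectors Bax and Bak1 held 30.6% to 31.6%, 34.3% to 35.8% and 26% to 27.6%. These shares cover the members alone. Bok, a gene of the family outside the members, had a higher mean than Mcl1 in each group. It stood at 75 ± 1.34 FPKM in rescue, 73.5 ± 3.15 in knockout and 70.7 ± 1.19 in empty vector (SD). Within the BH3-only genes Bcl2l11 made up 0.0577% to 0.115% in rescue, 1.32% to 1.73% in knockout and 0.0219% to 0.0788% in empty vector. Pmaip1 made up 20.1% to 23.4%, 10.1% to 11.9% and 24.2% to 26%. The ratio of Bax to Bcl2, a customary index of this balance, was 3.36 to 3.71 in the rescue libraries, 4.26 to 4.61 in knockout and 1.77 to 2.47 in empty vector, without overlap between groups. These are mRNA ratios; protein was not measured.

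Of 14 further genes of the family, 7 had enough counts to be tested, and Bmf changed most. Bmf encodes a BH3-only protein that, like Bim, is held by dynein light chains. It had 41, 32 and 11 counts in the rescue libraries, 90, 71 and 137 in knockout and 9, 8 and 6 in empty vector, that is 1.46, 1.75 and 0.692 CPM, 5.72, 5.87 and 5.77 CPM, and 0.400, 0.514 and 0.241 CPM. The groups did not overlap. Bmf rose by 3.95 ± 0.31 log2 units in knockout against empty vector (edgeR adjusted p = 2.1e-09), fell by 2.11 ± 0.25 in rescue against knockout (edgeR adjusted p = 6.9e-07) and rose by 1.84 ± 0.36 in rescue against empty vector (edgeR adjusted p = 0.00037). On the log2(FPKM + 0.1) scale, which understates changes of low genes, the first was 2.81 and the last 0.97. In knockout against empty vector it was the only one of the 7 that rose, and Bcl2l13, a mitophagy receptor (-0.32 ± 0.06; edgeR adjusted p = 0.00016), and Bcl2l2, which encodes pro-survival Bcl-w (-0.29 ± 0.11; edgeR adjusted p = 0.029), fell. The Bcl2l2 call was lost in 6 alternatives, among them leaving out empty-vector replicate 2 (adjusted p = 0.16) or 3 (adjusted p = 0.064) or knockout replicate 1 (adjusted p = 0.09) or 3 (adjusted p = 0.069). The median of the 7 was -0.29, beside -0.02 for all genes. Of all genes tested, 29.5% were called higher and 31.1% lower in that comparison. The shares were 29.5% and 27.3% in rescue against knockout, and 22.4% and 25.1% in rescue against empty vector. Of the 7, 3 rose and 1 fell in rescue against knockout: the hypoxia-induced mitophagy genes Bnip3l (0.85 ± 0.09; edgeR adjusted p = 1.6e-06) and Bnip3 (1.29 ± 0.30; edgeR adjusted p = 0.0097) rose with Bcl2l13 (0.34 ± 0.06; edgeR adjusted p = 8e-05), and Bmf fell. Against empty vector, rescue had 2 that rose, Bmf and Bnip3l (0.74 ± 0.09; edgeR adjusted p = 1.1e-05), and 2 fell, the BH3-only gene Bik (-0.72 ± 0.18; edgeR adjusted p = 0.0025) and Bcl2l2 (-0.39 ± 0.11; edgeR adjusted p = 0.0063). Bcl2a1a, Bcl2a1b, Bcl2a1d, Bcl2l10, Hrk and Bcl2l14 had 0 counts in all 9 libraries, and Bcl2l15 at most 5. The Bcl2a1 copies are nearly identical, so reads of any one of them could be lost or split.

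Downstream of the mitochondria, 14 genes of the apoptosome, caspases and released factors were all tested. For the lists of this paragraph, the all-gene shares in knockout against empty vector were 29.5% called higher and 31.1% lower. They were 29.5% and 27.3% in rescue against knockout, and 22.4% and 25.1% in rescue against empty vector. With lists this short, no more is read from the counts. In knockout against empty vector 3 rose, among them the executioner caspase Casp6 (0.71 ± 0.12; edgeR adjusted p = 6.3e-05) and the initiator Casp9 (0.56 ± 0.09; edgeR adjusted p = 2.1e-05), and 5 fell, among them the mitochondrial protease gene Htra2 (-0.38 ± 0.06; edgeR adjusted p = 1.5e-05), with a median of -0.12. Rescue against knockout gave 4 that rose and 1 that fell (median 0.20). The 1 that fell was Casp9 (-0.21 ± 0.09; edgeR adjusted p = 0.046), a call lost in 9 of 15 alternatives, among them leaving out any 1 library of the 6 other than knockout replicate 1 (adjusted p = 0.052 to 0.3). Among those that rose were Apaf1, the scaffold of the apoptosome, by 0.45 ± 0.08 (edgeR adjusted p = 5.3e-05) and Cycs, cytochrome c, by 0.36 ± 0.06 (edgeR adjusted p = 4.9e-05). Against empty vector 7 rose and 4 fell in rescue (median 0.19). Of 5 inhibitor-of-apoptosis genes, 2 fell in knockout against empty vector and the other 3 did not pass: Xiap (-0.20 ± 0.06; edgeR adjusted p = 0.0089) and Birc2 (-0.44 ± 0.14; edgeR adjusted p = 0.014), whose call was lost without knockout replicate 1 (adjusted p = 0.052). Xiap (0.21 ± 0.06; edgeR adjusted p = 0.0073) and Birc5 (0.36 ± 0.08; edgeR adjusted p = 0.00074) rose and Birc6 (-0.44 ± 0.10; edgeR adjusted p = 0.0013) fell in rescue against knockout, the last not with library totals alone (adjusted p = 0.07). Against empty vector 1 rose and 1 fell in rescue; the 1 that fell was Birc6 (-0.26 ± 0.10; edgeR adjusted p = 0.042), a call lost in 9 of 15 alternatives, among them leaving out any 1 library of the 6 other than empty-vector replicate 3 (adjusted p = 0.056 to 0.2). Of 7 tested genes of the death receptor route, 3 rose and 2 fell in knockout against empty vector, with the adaptor Tradd up by 0.61 ± 0.09 (edgeR adjusted p = 5.9e-06) and the adaptor Fadd down (-0.42 ± 0.09; edgeR adjusted p = 0.00056). In rescue 1 rose and 2 fell against knockout, and 2 rose and 2 fell against empty vector. Tnfsf10, the death ligand TRAIL, had 3, 4 and 2 counts in the rescue libraries, 26, 15 and 20 in knockout and 21, 17 and 17 in empty vector, and fell in rescue by 3.00 ± 0.47 on the log2 scale against knockout (edgeR adjusted p = 2e-05) and by 2.55 ± 0.48 against empty vector (edgeR adjusted p = 0.00024). With 2 to 4 counts in rescue these sizes are loose, and on the log2(FPKM + 0.1) scale they were -1.37 and -1.06.

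Upstream, of 8 stress and FOXO regulators, 1 rose and 5 fell in knockout against empty vector, where 29.5% of all genes tested rose and 31.1% fell, with a median log2 change of -0.51 beside -0.02 for all genes. Atf3, a stress-induced transcription factor, fell by 1.52 ± 0.08 (edgeR adjusted p = 9.3e-12), and Ddit3, which encodes the stress factor CHOP, fell by 1.33 ± 0.10 (edgeR adjusted p = 5.2e-08). Foxo3, which encodes a factor known to induce Bcl2l11 and Bbc3, had 79, 84.1 and 75.9 CPM in the rescue libraries, 81, 74.3 and 77 in knockout and 109, 124 and 120 in empty vector. It fell by 0.61 ± 0.07 in knockout (edgeR adjusted p = 1.5e-07) and by 0.56 ± 0.06 in rescue (edgeR adjusted p = 9.4e-07), both against empty vector. The 1 that rose was Chac1, a glutathione-degrading enzyme of the stress response, up by 0.77 ± 0.07 (edgeR adjusted p = 1.4e-08). Of the 8, 5 rose and 1 fell in rescue against knockout (median 0.37), with Atf4 up by 0.97 ± 0.08 (edgeR adjusted p = 6.4e-09). In rescue against empty vector 2 rose and 4 fell (median -0.30). Of all genes tested, 29.5% were called higher and 27.3% lower in rescue against knockout, and 22.4% and 25.1% in rescue against empty vector.

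Of 11 tested genes of the p53 pathway, which induces Bbc3, Pmaip1 and Bax, 2 rose and 5 fell in knockout against empty vector (median -0.21), beside 29.5% of all genes that rose and 31.1% that fell. Trp53 itself fell by 0.46 ± 0.08 on the log2 scale (edgeR adjusted p = 0.00011), Gadd45a, a damage-response gene, by 1.29 ± 0.08 (edgeR adjusted p = 4.8e-10) and the nuclease gene Aen by 0.50 ± 0.07 (edgeR adjusted p = 2.7e-06). Trp53inp1, a p53-induced stress protein gene, rose by 1.72 ± 0.07 (edgeR adjusted p = 3e-13). The cell cycle inhibitor Cdkn1a (-0.21 ± 0.11; edgeR adjusted p = 0.1) and the p53 ligase Mdm2 (-0.06 ± 0.06; edgeR adjusted p = 0.37) did not pass. In rescue against knockout 5 rose and 2 fell (median 0.20), and in rescue against empty vector 2 rose and 3 fell (median -0.03). Of all genes tested, 29.5% were called higher and 27.3% lower in rescue against knockout, and 22.4% and 25.1% in rescue against empty vector. Of 10 genes for turnover and binding partners of the members, 2 rose and 4 fell in knockout against empty vector (median -0.11). The all-gene shares given for the p53 genes apply to this list too. Huwe1, a ubiquitin ligase for Mcl1, fell by 0.60 ± 0.10 (edgeR adjusted p = 4.3e-05), March5, a mitochondrial ligase, by 0.45 ± 0.07 (edgeR adjusted p = 7.7e-06), and Usp9x, a deubiquitinase that stabilises Mcl1, rose by 0.28 ± 0.07 (edgeR adjusted p = 0.0011), a call lost with library totals alone (0.12). In rescue against knockout 5 of the 10 rose and 1 fell. The 1 that fell was Usp9x (-0.16 ± 0.07; edgeR adjusted p = 0.043), a call lost in 8 of 15 alternatives, among them leaving out any 1 library of the 6 other than knockout replicate 2 (adjusted p = 0.07 to 0.24), and with the other sign (0.02) with library totals alone. Among those that rose was Dynll1, a dynein light chain that binds Bim, up by 0.42 ± 0.06 (edgeR adjusted p = 1.2e-05). In rescue against empty vector 3 rose and 1 fell. The 1 that fell was Huwe1 (-0.64 ± 0.10; edgeR adjusted p = 4.1e-05), so Huwe1 was lower in both rescue and knockout than in empty vector. Between rescue and knockout it did not pass (-0.04 ± 0.10; edgeR adjusted p = 0.73).

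The genes whose log2 CPM followed a member most closely over the 9 libraries were sought among 9666 protein-coding genes with a mean of at least 5 CPM, for each of the 9 members called in at least 2 comparisons. Closest to Bcl2l11 were Bach1 (Pearson r = 0.999) and Fam102b (r = 0.995). Closest to Pmaip1 were Rnps1 (r = 0.995) and Kcmf1 (r = 0.994), to Bid Nob1 (r = 0.996) and Rnf114 (r = 0.995), and to Bcl2 Gm7072 (r = 0.996) and Aldh1l2 (r = 0.990). For Bcl2l1 they were Srp72 (r = 0.992) and the p53 target Ccng1 (r = 0.989), for Bax Mif4gd (r = 0.978) and Lamb3 (r = 0.977), and for Bak1 Fam110a (r = 0.989) and Plin3 (r = 0.984). For Mcl1 they were Eml1 (r = 0.976) and Tent5a (r = 0.968), and for Bad Cep19 (r = 0.971) and Supt7l (r = 0.964). The libraries fall into 3 separate groups and so many genes were searched that values this near 1 are a description of shape over the groups only.

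Some members share sequence with other genes of the table. Bak1 lies wholly within Ggnbp1 of the opposite strand, which had 40 to 165 counts per library beside 1037 to 2543 for Bak1. Bid overlaps Bcl2l13 of the opposite strand over 913 bases, and Bad overlaps Gpr137 of the opposite strand over 590. The labels' protocol describes directional and non-directional libraries without saying which was used, so reads of these overlaps cannot be assigned with certainty. In the authors' deposited table, whose test is not named in the sources used, the log2 change of Bcl2l11 was 4.57 for knockout over empty vector and 3.92 for knockout over rescue, and Bad did not pass for rescue over empty vector (adjusted p = 0.11).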

How the data were processed

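Libraries came from poly(A) mRNA, per the labels' protocols, although a label field gives genomic DNA. Tools named without roles in the submitters' processing notes are HISAT2, HISAT, TopHat2 and CASAVA, with build mm10; no counter is named. The deposited gene counts are whole, unnormalized numbers, and FPKM stand beside them for each library, per the file headers. The authors' log2 fold changes, p-values and normalized mean signal per group stand in the deposited table; the knockout mean against empty vector is a weighted sum of all 3 knockout count columns, whereas the series' design text counts fewer.

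Counts were tested with edgeR 4.0.16 (R 4.3.3): filterByExpr by group, TMM scaling, a robust quasi-likelihood fit with 1 mean per group over all 9 libraries, and Benjamini-Hochberg adjustment over all 13326 genes tested. SE is the log2 change over the square root of F. CPM use TMM-scaled library sizes. The method was tested on simulated data. Alternatives used DESeq2 1.42.0, limma 3.58.1 (voom, and log2(FPKM + 0.1)), other scaling, no filter, 2 groups only, a replicate block and leaving out each library. No pair of replicates looked like 1 library deposited again (chi-square over its degrees of freedom, 3.43 to 18.36). The members and the gene lists were chosen with earlier results of these data known. List genes were named by smallest adjusted p, up to 4 a list and comparison, with some left out for brevity. Cdkn1a and Mdm2 were named after their values were seen. Some genes of the lists are not reported here.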

Additional observations from a re-analysis of the deposited data

How the results depend on the processing

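Of 449 member values recomputed under the alternatives, 412 kept direction and call, 21 lost the call, 6 gained it and 10 changed sign. Voom, limma on log2 FPKM and removal of mitochondrial genes changed no member call; log2 FPKM with its pseudocount of 0.1 shrank Bcl2l11 to 2.41 in knockout against empty vector. With library totals alone, 4 members in place of 7 were called in rescue against knockout, where Mcl1 was 0.02, Bak1 0.02 and Bad 0.04, and Bcl2l1 was -0.14 in knockout against empty vector. Without a filter on low counts that Bcl2l1 value was -0.04. Leaving out 1 library at a time, Bcl2l1 ran from -0.08 to 0.12 in knockout against empty vector and Mcl1 from -0.02 to 0.05 in rescue against empty vector. The number of members called ran from 7 to 8 in knockout against empty vector, 6 to 8 in rescue against knockout and 5 to 7 in rescue against empty vector. The cause of these shifts was not tested. Same-numbered libraries did not deviate together (r from -0.15 to 0.0454 over 9 pairs, and 0 libraries correlated best with their own number). Whether same-numbered libraries were handled together cannot be told from these correlations. With the replicate block 8 members and 7890 genes were called in knockout against empty vector. The block gave 7 and 7367 in rescue against knockout, and 5 and 6091 in rescue against empty vector. The member call that changed was Bad (0.21, adjusted p = 0.056). Over all 186 results of tested list genes, 2553 of 2790 values kept direction and call, 78 lost the call, 90 gained it and 69 changed sign. Depth limits Bcl2l11 outside knockout, where no library had more than 9 counts.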
